A study of Mus musculus with 24 samples.

Results

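The activity-dependent early genes described here are Arc, Egr1, Egr2, Egr3, Ier2, Ier5, Btg2, Srf, Maff and Npas4. These were 10 of 55487 genes listed and all 10 were among the 14541 genes tested. The set was selected on measured values, because Arc had been seen to fall at 1 % O2, so the O2 differences below are given as a description with no test. For Arc the difference between its responses to stimulation at 1 % and 5 % O2 is also given without a test.

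Immediate early genes are transcribed within minutes of a stimulus, without new protein synthesis, when calcium and growth factor signals reach factors already bound at their promoters. Serum response factor with its ternary complex and myocardin-related cofactors, and the cAMP response element binding protein, are the best known of these factors. In neurons Arc, Npas4 and the EGR factors are standard readouts of synaptic activity, and in skeletal muscle EGR and IER genes respond to contraction and Egr3 is needed for muscle spindles.

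The RNA came from C2C12, an immortalised line of wild-type (WT) mouse myoblasts that fuse into contracting myotubes. All groups were grown and differentiated at 5 % O2 and were labelled as day 5. The 5 % CTRL myotubes spent 2 h at 5 % O2 and the 1 % CTRL myotubes spent 2 h at 1 % O2, both without stimulation. The 5 % STIM and 1 % STIM myotubes had the same exposures followed by repeated bouts of high-frequency electrical stimulation, and RNA was collected directly afterwards. By the study's methods, the medium was changed before stimulation and again after it. How the controls were handled during that time is not stated. The part of a medium change or of added time in the responses to stimulation was not tested. Each group had 6 libraries, described in the study's methods as biological replicates. One cell line without nerve, vessels or spindles limits all 4 groups as a model of muscle, and with a single collection time the course of an early gene cannot be seen.

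The libraries held between 26541858 and 28173745 reads. All 21 myotube markers passed the filter on low values. Their summed normalized counts were 781880 to 844140 in 5 % CTRL, 726359 to 776317 in 1 % CTRL, 709795 to 805668 in 5 % STIM and 709195 to 777202 in 1 % STIM, so that every 1 % CTRL library lay below every 5 % CTRL library. In the neuron marker list 6 of 11 genes averaged below 10 normalized counts, and Snap25 and Gad1 had no read in any of the 24 libraries. Map2 (370 on average), Syn1 (225), Nefl (56.5) and Slc17a7 (41.8) had reads in every library. The summed neuron list was 7328 to 8183 normalized counts at 5 % O2 and 5865 to 6958 at 1 % O2, most of it from Camk2a, a kinase that muscle also expresses (6399 on average), and its part in the results below was not tested. Undifferentiated myoblast markers summed to 6575 to 7039 normalized counts in 5 % CTRL, 5778 to 7051 in 1 % CTRL, 6103 to 6636 in 5 % STIM and 5324 to 5920 in 1 % STIM, the last below every library at 5 % O2. The part of both marker lists in the results below was not tested. All 4 endothelial and all 4 adipocyte markers averaged below 10, and the summed macrophage list ranged from 57.6 to 110 normalized counts. Replicate 1 of 1 % CTRL stood apart in the relation of its values to gene length, with a slope of 0.0945 log2 units per doubling of length against -0.0367 to 0.055 in the other 23 libraries. Some results that involve that library are given with and without it. Others, among them the O2 difference of Srf and the difference between its responses, are given with it only. In RNA from whole cultures, fewer cells that transcribe a gene and less RNA per cell cannot be told apart.

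Values are normalized counts, which are reads divided by a size factor for each library, and fold changes are on the scale of log2(normalized count + 1) from limma. A gene was called at a Benjamini-Hochberg adjusted p under 0.05 over all tested genes, and SE is the standard error of the log2 fold change.

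Arc encodes a cytoskeleton-associated protein that forms capsid-like shells and removes AMPA receptors from synapses. It lies on chromosome 15 at 74669083 to 74672570 on the minus strand of GRCm38. The lowest, median and highest Arc value was 257, 311 and 365 normalized counts in 5 % CTRL and 159, 198 and 261 in 5 % STIM. At 1 % O2 the values were 55.1, 63.4 and 83.7 in the controls and, in 1 % STIM, 21.9, 34.9 and 47.7. All 12 libraries at 1 % O2 lay below all 12 at 5 % O2, and within 1 % O2 every stimulated library lay below every unstimulated one. The 5 % CTRL and 5 % STIM libraries overlapped only where the highest stimulated library passed the lowest control library. Arc was therefore ordered 5 % CTRL, 5 % STIM, 1 % CTRL and 1 % STIM from high to low, and the first pair of neighbours was the one that overlapped.

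Stimulation lowered Arc at both O2 levels. The log2 fold change was -0.61 at 5 % O2 (SE 0.14, adjusted p = 0.00178) and -0.94 at 1 % O2 (SE 0.14, adjusted p = 5.63e-06). The same groups entered the fall of Arc that selected the set. Both p-values of Arc may therefore not be independent of that selection. The mean fell from 307.8 ± 37.1 to 202.5 ± 35.3 normalized counts at 5 % O2 and from 66.9 ± 11.0 to 35.0 ± 9.24 at 1 % O2 (SD, *N* = 6). The difference between both responses was -0.33 with a 95 % interval from -0.74 to 0.08. As a description of the values that selected the set, Arc was 4.60-fold lower at 1 % than at 5 % O2 without stimulation and 5.78-fold lower with it. The genes whose log2 values followed Arc most closely over the 24 libraries were Dusp27 (*r* = 0.982), Ccn1 (0.981), Errfi1 (0.980), Has2 (0.978) and Hbegf (0.976). These correlations are descriptions over libraries that share 4 groups and one normalisation.

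**Figure D1:**
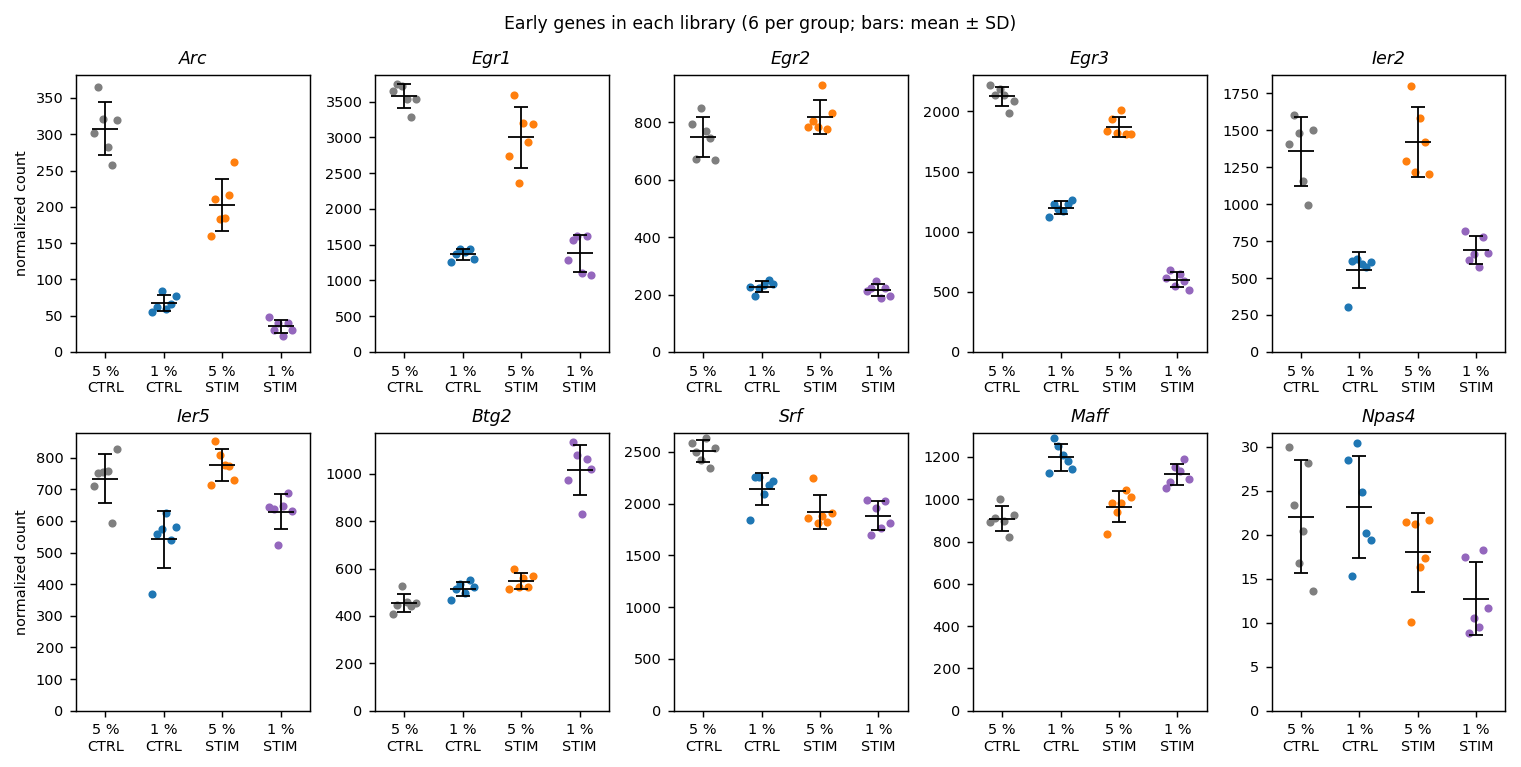
Normalized counts of the 10 early genes (vertical axes, each from 0) in the 4 groups of 6 libraries (horizontal axes), with 1 point per library and bars for the mean ± SD. Arc, Egr1, Egr2, Egr3 and Ier2 had no library at 1 % O2 as high as any at 5 % O2, Maff had none as low, and Btg2 was high in 1 % STIM alone. The share of all genes that separate by O2 in this way was not counted. Between O2 levels 59.9 % of all genes were called without stimulation and 57.4 % with it.

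Egr1, Egr2 and Egr3 encode zinc finger transcription factors that bind the same GC-rich site and are held in check by the corepressors Nab1 and Nab2. Egr1 has the largest share of their reads, Egr2 is best known for control of myelination, and Egr3 for the muscle spindle. Per kilobase of exon, the mean level in 5 % CTRL was 798 normalized counts for Egr1, 483 for Egr3 and 221 for Egr2.

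Egr1 had a lowest, median and highest value of 3285, 3596 and 3742 normalized counts in 5 % CTRL and 2360.4, 3056 and 3585 in 5 % STIM. The 1 % CTRL libraries had 1254, 1382 and 1443, and the 1 % STIM libraries 1070.3, 1423 and 1625. Stimulated and unstimulated libraries overlapped at both O2 levels, and the stimulated groups spread more widely. The log2 fold change was -0.27 at 5 % O2 (SE 0.10, adjusted p = 0.0775) and -0.01 at 1 % O2 (SE 0.10, adjusted p = 0.964). Neither passed the test, and their 95 % intervals ran from -0.48 to -0.05 and from -0.23 to 0.21. The sign at 1 % O2 turned with the scaling and the tool.

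Egr2 lies on chromosome 10 at 67535475 to 67542188 on the plus strand. RefSeq lists 5 starts for it, and the CArG box, the binding site of Srf, was found ahead of 4 of them. The window of 250 bases before the start at 67537566 (chr10:67537316-67537565, plus strand) and the 30 bases around the second box (chr10:67537787-67537816, plus strand) are shown because Srf itself was among the called genes. Capitals mark the CArG box, at positions -72 to -63 from the start in both cases, counted from the start at 67537869 for the second.
Egr2 upstream window: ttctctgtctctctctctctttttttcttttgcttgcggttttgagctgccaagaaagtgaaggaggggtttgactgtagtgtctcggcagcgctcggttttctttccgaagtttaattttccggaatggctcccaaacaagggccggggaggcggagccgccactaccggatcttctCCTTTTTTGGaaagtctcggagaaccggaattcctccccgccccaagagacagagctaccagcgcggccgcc
Egr2 second CArG box: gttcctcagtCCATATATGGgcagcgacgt

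The lowest, median and highest Egr2 value was 671, 759 and 849.6 normalized counts in 5 % CTRL and 777, 796 and 930.2 in 5 % STIM. It was 196, 230.1 and 251 in 1 % CTRL and 189, 218 and 248 in 1 % STIM. The groups overlapped within each O2 level and were far apart between them. Stimulation gave a log2 fold change of 0.13 at 5 % O2 (SE 0.07, adjusted p = 0.185) and -0.08 at 1 % O2 (SE 0.07, adjusted p = 0.441), neither past the threshold.

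Egr3 lies on chromosome 14 at 70077203 to 70082614 on the plus strand. Its lowest, median and highest value was 1990.0, 2136 and 2221 normalized counts in 5 % CTRL and 1810.0, 1827 and 2013 in 5 % STIM. The controls at 1 % O2 had 1118, 1208 and 1266, and 1 % STIM 516, 601 and 682. At 1 % O2 the stimulated libraries all lay below the controls with a wide gap, whereas at 5 % O2 the ranges overlapped slightly. Stimulation lowered Egr3 by a log2 fold change of -0.18 at 5 % O2 (SE 0.05, adjusted p = 0.00532) and by -1.01 at 1 % O2 (SE 0.05, adjusted p = 1.25e-17), the latter a 2.01-fold decrease. The difference between both responses was -0.82 (SE 0.07, adjusted p = 1.19e-10). The same term was 0.26 for Egr1 (adjusted p = 0.299) and -0.21 for Egr2 (adjusted p = 0.162), and no test between the 3 genes was made.

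The make-up of the EGR reads shifted with these changes. Egr3 held 33.0 % ± 0.365 (SD, *N* = 6) of the summed normalized counts of the 3 genes in 5 % CTRL, 33.0 % ± 2.19 in 5 % STIM, 43.0 % ± 1.39 in 1 % CTRL and 27.7 % ± 3.89 in 1 % STIM. Egr1 held 55.4 % ± 0.998, 52.5 % ± 3.11, 48.9 % ± 1.44 and 62.4 % ± 4.03 in the same groups. So Egr3 took its highest share in 1 % CTRL and its lowest in 1 % STIM.

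Of the corepressors, Nab2 fell with stimulation from 2298 ± 80.7 to 2041 ± 132 normalized counts at 5 % O2 (log2 fold change -0.17, adjusted p = 0.00259) and from 3173 ± 211 to 2476 ± 116 at 1 % O2 (-0.36, adjusted p = 4.26e-08). The decrease was larger at 1 % O2, with a difference between both responses of -0.18 (adjusted p = 0.0421). Nab1 rose at 5 % O2 by 0.14 (adjusted p = 0.0344) and had a fold change of 0.07 at 1 % O2 (adjusted p = 0.372). Both corepressors were called higher at 1 % than at 5 % O2 with and without stimulation, beside 29.0 % and 29.4 % of all genes. Egr4, the fourth EGR gene, did not pass the filter on low values.

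Ier2 and Ier5 are intronless genes of nuclear proteins, of which Ier5 takes part in the heat shock response through HSF1. The lowest, median and highest Ier2 value was 992, 1444 and 1603 normalized counts in 5 % CTRL and 1201, 1357 and 1803 in 5 % STIM. The 1 % CTRL values were 305, 604 and 627, and in 1 % STIM 574, 666 and 820.3. Ier2 overlapped between stimulated and control libraries at both O2 levels, and the lowest 1 % CTRL value was that of the library that stood apart. The log2 fold change with stimulation was 0.07 at 5 % O2 (SE 0.16, adjusted p = 0.822) and 0.34 at 1 % O2 (SE 0.16, adjusted p = 0.155). Without replicate 1 of 1 % CTRL the latter was 0.18 (adjusted p = 0.336).

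Ier5 had a lowest, median and highest value of 594, 753 and 827 normalized counts in 5 % CTRL and 715, 776 and 853 in 5 % STIM. The values were 369, 567 and 625 in 1 % CTRL and 523, 641 and 688 in 1 % STIM. These ranges overlapped as well, and again the same 1 % CTRL library was lowest. The log2 fold change was 0.09 at 5 % O2 (SE 0.10, adjusted p = 0.589) and 0.23 at 1 % O2 (SE 0.10, adjusted p = 0.104), the latter 0.12 (adjusted p = 0.184) without that library. Part of the O2 difference of both genes moved with it too. Ier2 was lower at 1 % than at 5 % O2 in unstimulated myotubes by -1.31 log2 units, or by -1.15 without that library, and Ier5 by -0.45 or by -0.34.

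Ier3, a stress-induced regulator of cell survival that was listed with Ier2 and Ier5 by name alone, was called in every comparison. It rose with stimulation at 5 % O2 from 510.0 ± 31.4 to 1005 ± 119 normalized counts (log2 fold change 0.97, adjusted p = 7.73e-12) and fell at 1 % O2 from 1627 ± 38.4 to 1340.3 ± 145 (-0.29, adjusted p = 0.00204). The difference between these responses was -1.26 (adjusted p = 2.43e-10). Ier5l, with few reads, had a log2 fold change of -0.19 at 5 % O2 (adjusted p = 0.674) and -0.13 at 1 % O2 (adjusted p = 0.798).

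Srf encodes serum response factor, a MADS-box factor that drives both immediate early genes and the genes of the actin cytoskeleton and sarcomere. It lies on chromosome 17 at 46548329 to 46556175 on the minus strand. The bases ahead of its RefSeq start (chr17:46556176-46556412, minus strand, 237 bases after trimming to sequence outside annotated exons) are shown because Srf is known to drive its own promoter. Capitals mark 2 CArG boxes, at positions -82 to -73 and -62 to -53 from the start, and an EGR site at -101 to -93.
Srf upstream window: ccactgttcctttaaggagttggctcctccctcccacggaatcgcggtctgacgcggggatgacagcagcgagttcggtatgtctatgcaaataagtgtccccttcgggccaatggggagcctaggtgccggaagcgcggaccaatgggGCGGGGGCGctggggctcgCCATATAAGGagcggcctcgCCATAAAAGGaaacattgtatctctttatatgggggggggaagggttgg

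The CArG box was present in 482 of 32851 RefSeq windows of 250 bases before a gene start (1.467 %), and the EGR site, searched as GCGGGGGCG or GCGTGGGCG on both strands, in 1005 (3.059 %). Among the 6 early genes with a window in the promoter set used (Btg2, Egr2, Ier5, Maff, Npas4 and Srf), Egr2 and Srf held a CArG box and Maff and Srf an EGR site. That set held no window for Arc, Egr1, Egr3 and Ier2, so their promoters were not searched for any motif. The shares above are of windows, whereas a gene was counted once if any of its windows held the motif, so the units differ. These matches are descriptions of sequence.

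The lowest, median and highest Srf value was 2346, 2518 and 2634 normalized counts in 5 % CTRL and 1813, 1873 and 2252 in 5 % STIM. In 1 % CTRL it was 1842, 2202 and 2259, and in 1 % STIM 1702, 1887 and 2034. At 5 % O2 every stimulated library lay below every control library, and at 1 % O2 the groups overlapped. Stimulation lowered Srf by a log2 fold change of -0.38 at 5 % O2 (SE 0.05, adjusted p = 3.93e-06) and by -0.19 at 1 % O2 (SE 0.05, adjusted p = 0.0127), or by -0.23 (adjusted p = 0.000672) without replicate 1 of 1 % CTRL, the lowest control there. The difference of 0.20 between both responses did not pass the test (SE 0.08, adjusted p = 0.097).

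The cytoskeletal targets of SRF were described beside it, from a list of 22 genes that were all tested. At 5 % O2 all 22 had a negative log2 fold change with stimulation and 18 were called lower, with a median log2 fold change of -0.16 against -0.01 over all tested genes. Of all genes 21.4 % were called in this comparison, 9.44 % higher and 12.0 % lower, and the share of calls that were higher was 44.04 %, or 62.15 % after libraries were rescaled to the same total. In the list, rescaling left 17 genes called lower and edgeR called 18 lower. Tgfb1i1 (Hic-5, a focal adhesion protein) fell from 2407 ± 77.7 to 1631 ± 59.3 normalized counts (-0.56, adjusted p = 3.30e-15) and Actb, beta-actin, from 65461 ± 3555 to 51027 ± 3171 (-0.36, adjusted p = 6.42e-08). Cnn2, a calponin, changed by -0.35 (adjusted p = 1.21e-11) and Myl9, a regulatory light chain of non-muscle and smooth muscle myosin, by -0.34 (adjusted p = 2.54e-08). Of the muscle actins, Acta1 was not called (-0.05, adjusted p = 0.449) and neither was Actc1 (-0.01, adjusted p = 0.833).

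At 1 % O2 the same list had 1 gene called higher and 9 lower, with a median of -0.08 against 0.00 over all genes. Of all genes 22.3 % were called, 11.5 % higher and 10.8 % lower, and 51.40 % of calls were higher, or 62.36 % after rescaling. The number of targets called lower was 6 after rescaling, 7 by edgeR and 11 without replicate 1 of 1 % CTRL. Filip1l, a filamin-interacting protein, was the gene that rose, by 0.20 (adjusted p = 0.000127), after a change of -0.27 at 5 % O2. The difference of the responses passed the test for 4 targets, all more positive at 1 % O2, beside 11.3 % of all genes (5.88 % more positive and 5.43 % more negative). These were Filip1l (0.47), Tgfb1i1 (0.31), Zyx (0.25) and Tagln2 (0.15), of which Zyx encodes the focal adhesion protein zyxin and Tagln2 a transgelin. Among the 19 targets with a window in the promoter set used, 8 held a CArG box, namely Acta1, Actc1, Actg1, Cnn2, Fhl1, Filip1l, Myl9 and Vcl.

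Among 6 tested cofactors of SRF, stimulation at 5 % O2 raised Mrtfb (0.19, adjusted p = 0.000307), which carries actin signals to SRF. It lowered the ternary complex factor Elk3 (-0.20, adjusted p = 9.26e-05) and Fhl2 (-0.21, adjusted p = 0.00153), a LIM protein that restrains SRF at muscle promoters. At 1 % O2 1 cofactor was called higher (Elk4, 0.11, adjusted p = 0.0205) and 1 lower (Elk1, -0.21, adjusted p = 0.000429). Both are ternary complex factors, chosen for mention after their values were seen. Myocd did not pass the filter.

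Btg2 encodes an antiproliferative protein of the BTG and TOB family that recruits the CCR4-NOT deadenylase and is a target of p53. It lies on chromosome 1 at 134075170 to 134079120 on the minus strand. Its upstream window (chr1:134079156-134079405, minus strand) and that of Maff (chr15:79347270-79347519, plus strand, before the RefSeq start at 79347520) are shown because both hold a CRE. Capitals mark the CRE, searched as TGACGTCA, and in Maff also the EGR site. The CRE lies at positions -166 to -159 in Btg2 and -29 to -22 in Maff, where the EGR site lies at -88 to -80. A CRE was present in 508 of the 32851 windows (1.546 %). Among the other listed genes, Dusp1, Errfi1, Plk2, Ppp1r15a, Braf and Arnt held one. Btg2 and Maff were higher at 1 % O2 and Errfi1 was lower, and whether a CRE goes with an O2 difference was not tested.
Btg2 upstream window: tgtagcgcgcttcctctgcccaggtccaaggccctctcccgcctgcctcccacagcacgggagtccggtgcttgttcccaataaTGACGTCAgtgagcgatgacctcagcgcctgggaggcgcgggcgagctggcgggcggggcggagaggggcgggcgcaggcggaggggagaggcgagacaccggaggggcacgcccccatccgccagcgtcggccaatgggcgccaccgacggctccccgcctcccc
Maff upstream window: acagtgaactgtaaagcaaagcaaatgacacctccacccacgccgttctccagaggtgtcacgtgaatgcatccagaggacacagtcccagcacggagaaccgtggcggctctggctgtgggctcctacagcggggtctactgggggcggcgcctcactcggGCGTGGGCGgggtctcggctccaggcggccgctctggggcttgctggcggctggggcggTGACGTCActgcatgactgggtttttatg

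The lowest, median and highest Btg2 value was 407, 449 and 525 normalized counts in 5 % CTRL and 514, 541 and 597 in 5 % STIM. In 1 % CTRL it was 468, 517 and 550.4, and in 1 % STIM 829.8, 1041 and 1134. The stimulated libraries at 1 % O2 lay above all 18 others, and the other 3 groups overlapped. Stimulation raised Btg2 by 0.27 at 5 % O2 (SE 0.06, adjusted p = 0.00145) and by 0.98 at 1 % O2 (SE 0.06, adjusted p = 1.27e-14), a 1.97-fold increase. The response was larger at 1 % O2 by 0.71 (SE 0.09, adjusted p = 4.35e-07). Btg2 was also the only early gene called higher with stimulation at either O2 level, which held under each of the alternatives run.

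Of 4 tested relatives of Btg2, 2 were called higher and 1 lower at 5 % O2, and 3 higher and 1 lower at 1 % O2, beside 21.4 % and 22.3 % of all genes called in either direction. Btg1 rose from 2255 ± 116 to 3083 ± 123 normalized counts at 5 % O2 (log2 fold change 0.45, adjusted p = 1.42e-11) and by 0.59 at 1 % O2 (adjusted p = 1.50e-14). Tob2 rose by 0.29 and 0.27 (adjusted p = 6.78e-06 and 1.74e-05), whereas Tob1 fell by 0.23 and 0.15 on the log2 scale (adjusted p = 2.67e-05 and 0.00258). The difference between the responses at 1 % and 5 % O2 was 0.14 for Btg1 (adjusted p = 0.0944), -0.02 for Tob2 (adjusted p = 0.879), 0.07 for Tob1 (adjusted p = 0.429) and 0.23 for Btg3 (adjusted p = 0.243). The gene whose values followed Btg2 most closely over the 24 libraries was Sesn1 (*r* = 0.937), which encodes sestrin 1, another known p53 target.

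Maff encodes a small MAF protein, a basic leucine zipper factor with no activation domain that pairs with Nfe2l2 and with Bach proteins at antioxidant response elements. It lies on chromosome 15 at 79346621 to 79359076 on the plus strand. Its lowest, median and highest value was 823, 905 and 1002 normalized counts in 5 % CTRL and 834, 982 and 1042 in 5 % STIM. In 1 % CTRL it was 1122, 1193 and 1288, and in 1 % STIM 1055, 1115 and 1189.9. All libraries at 1 % O2 lay above those at 5 % O2, and stimulated and control libraries overlapped at each O2 level. Stimulation gave 0.09 at 5 % O2 (SE 0.05, adjusted p = 0.216) and -0.10 at 1 % O2 (SE 0.05, adjusted p = 0.143). The difference of -0.19 missed the threshold (SE 0.07, adjusted p = 0.0722) but passed it after rescaling (-0.20, adjusted p = 0.0497) and without replicate 1 of 1 % CTRL (-0.20, adjusted p = 0.0330).

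Among 6 tested small MAF proteins and partners, 5 were called lower at 1 % than at 5 % O2 without stimulation and 6 with it, beside 30.5 % and 28.4 % of all genes. After rescaling 4 and 5 were called lower. With stimulation 4 of the 6 were called higher at each O2 level, beside 9.44 % of all genes at 5 % O2 and 11.5 % at 1 % O2. Nfe2l2, the NRF2 factor, rose by 0.26 at 5 % O2 and 0.13 at 1 % O2 (adjusted p = 3.35e-07 and 0.00475). Nfe2l1 rose by 0.25 and 0.28 (adjusted p = 4.73e-09 and 5.16e-10) and Mafg by 0.23 and 0.14 (adjusted p = 3.22e-07 and 0.000421).

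Npas4 encodes a bHLH-PAS factor that in neurons is induced by calcium entry and shapes inhibitory synapses. It was the least abundant of the 10 genes, with between 9 and 32 reads in a library. The lowest, median and highest value was 13.6, 21.9 and 30.0 normalized counts in 5 % CTRL and 10.1, 19.3 and 21.7 in 5 % STIM. In 1 % CTRL it was 15.3, 22.5 and 30.5, and in 1 % STIM 8.82, 11.1 and 18.3. All 4 groups overlapped. The log2 fold change with stimulation was -0.27 at 5 % O2 (SE 0.23, adjusted p = 0.453) and -0.83 at 1 % O2 (SE 0.23, adjusted p = 0.00748), and the latter was -0.54 with a pseudocount of 10 in place of 1. The difference between both responses was -0.56 (SE 0.33, adjusted p = 0.293). Its partners Arnt and Arnt2 had log2 fold changes between -0.06 and 0.05 at 5 % O2 and between -0.03 and 0.05 at 1 % O2 and were not called.

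Over the 10 early genes, stimulation at 5 % O2 called 1 higher (Btg2) and 3 lower (Arc, Egr3, Srf), with 6 not called, so 4 of 10 beside 21.4 % of all genes, and the median log2 fold change was -0.06. At 1 % O2 it called 1 higher (Btg2) and 4 lower (Arc, Egr3, Srf, Npas4), with 5 not called, so 5 of 10 beside 22.3 % of all genes, and a median of -0.09. Arc is counted at both O2 levels with the limit on its p-values given above. The difference between the responses passed the test for 2 genes, Egr3 and Btg2, in opposite directions, beside 11.3 % of all genes.

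**Figure D2:**
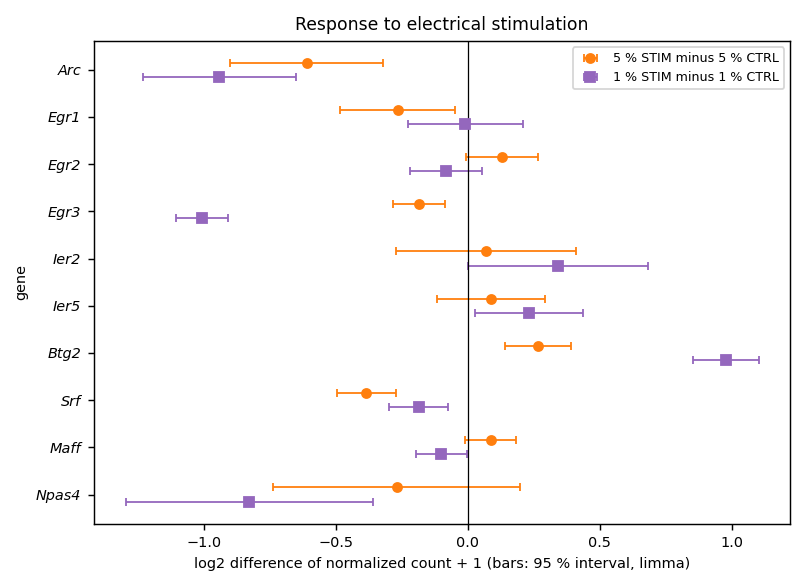
Log2 difference of normalized count + 1 between stimulated and control myotubes (horizontal axis) for the 10 early genes at 5 % O2 (circles) and 1 % O2 (squares), with 95 % intervals from limma. Egr3 and Btg2 had their larger responses at 1 % O2, -1.01 and 0.98, against -0.18 and 0.27 at 5 % O2.

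The other immediate early genes made a list of 50, all of which were tested. At 5 % O2 stimulation called 22 higher and 10 lower, with 18 not called, beside 21.4 % of all genes called. At 1 % O2 it called 18 higher and 19 lower, with 13 not called, beside 22.3 % of all genes. The median log2 fold changes of the list were 0.12 and 0.02. Pim1, a serine-threonine kinase, rose from 109 ± 9.72 to 389 ± 33.5 normalized counts at 5 % O2 (log2 fold change 1.83, adjusted p = 3.45e-18) and from 162 ± 20.8 to 929 ± 108 at 1 % O2 (2.51, adjusted p = 6.51e-22). Nr4a1, an orphan nuclear receptor induced by exercise, rose by 1.27 and 1.20 (adjusted p = 1.26e-17 and 4.97e-17). Nfkbiz, a nuclear regulator of NF-kB, rose by 1.01 at 5 % O2 (adjusted p = 4.84e-14) and fell by 0.24 on the log2 scale at 1 % O2 (adjusted p = 0.0075), a difference of -1.25 (adjusted p = 1.08e-11). Gadd45g, a stress sensor, fell by 0.96 and 0.88 on the log2 scale (adjusted p = 6.10e-05 and 0.000146). Fos, the best known immediate early gene and chosen for mention for that reason, had 108 normalized counts in 5 % CTRL on average and was not called at either O2 level (-0.16 and -0.06, adjusted p = 0.403 and 0.82). In the difference of responses 7 of the 50 were called more positive and 12 more negative at 1 % O2, beside 11.3 % of all genes called.

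Kinases and factors that carry activity signals had log2 fold changes between -0.13 and 0.15 at 5 % O2 and between -0.17 and 0.29 at 1 % O2. Of 29 tested, 3 were called higher and 2 lower at 5 % O2, and 8 higher and 3 lower at 1 % O2, beside the shares of all genes given above. Rps6ka2 (0.15, adjusted p = 0.00158) and Crtc3 (0.14, adjusted p = 0.0486), a CREB coactivator, rose at 5 % O2, and Camk2g fell by 0.13 on the log2 scale (adjusted p = 0.000113). Ep300, the p300 acetyltransferase, changed by -0.11 at 5 % O2 and by 0.11 at 1 % O2 (adjusted p = 0.0381 and 0.0376), a difference of 0.22 (adjusted p = 0.00652).

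**Figure D3:**
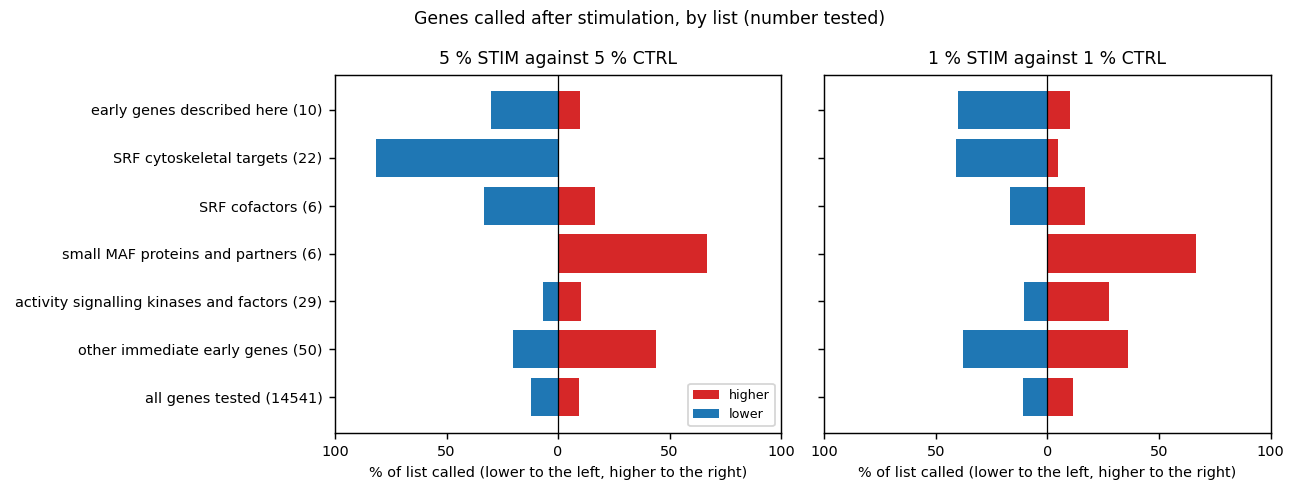
Share of each gene list called lower (bars to the left) or higher (bars to the right) after stimulation at 5 % O2 (left panel) and 1 % O2 (right panel), in percent of the number tested, given in parentheses, with all tested genes at the bottom. Of the 22 cytoskeletal targets of SRF 18 were lower at 5 % O2 and 9 at 1 % O2, whereas 4 of 6 small MAF proteins and partners were higher at both.

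The O2 differences of the 10 genes, which include the values that selected them, are given as a description. In unstimulated myotubes 3 of the 10 had a log2 difference above 0 and 7 below 0 at 1 % O2, and in stimulated myotubes 2 were above 0 and 8 below 0. Over all genes 59.9 % were called without stimulation (29.4 % higher and 30.5 % lower) and 57.4 % with it (29.0 % higher and 28.4 % lower). The share of all calls that were higher moved with rescaling from 49.05 % to 62.67 % without stimulation and from 50.44 % to 63.21 % with it. The median log2 difference of the 10 genes was -0.64 and -0.76, against 0.00 over all genes in both comparisons.

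Without stimulation the log2 difference between 1 % and 5 % O2 was -2.19 for Arc (SE 0.14), -1.71 for Egr2 (SE 0.07), -1.39 for Egr1 (SE 0.10), -1.31 for Ier2 (SE 0.16) and -0.83 for Egr3 (SE 0.05). It was -0.45 for Ier5 (SE 0.10) and -0.23 for Srf (SE 0.05), against 0.40 for Maff (SE 0.05), 0.18 for Btg2 (SE 0.06) and 0.08 for Npas4 (SE 0.23). With stimulation the differences were -2.52 for Arc, -1.93 for Egr2, -1.65 for Egr3, -1.13 for Egr1, -1.04 for Ier2 and -0.31 for Ier5. They were -0.48 for Npas4, -0.03 for Srf, 0.21 for Maff and 0.89 for Btg2. Arc was lowest in both comparisons, and Maff and Btg2 were the genes above 0 in both. The small difference of Srf with stimulation changed sign to 0.04 after rescaling.

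**Figure D4:**
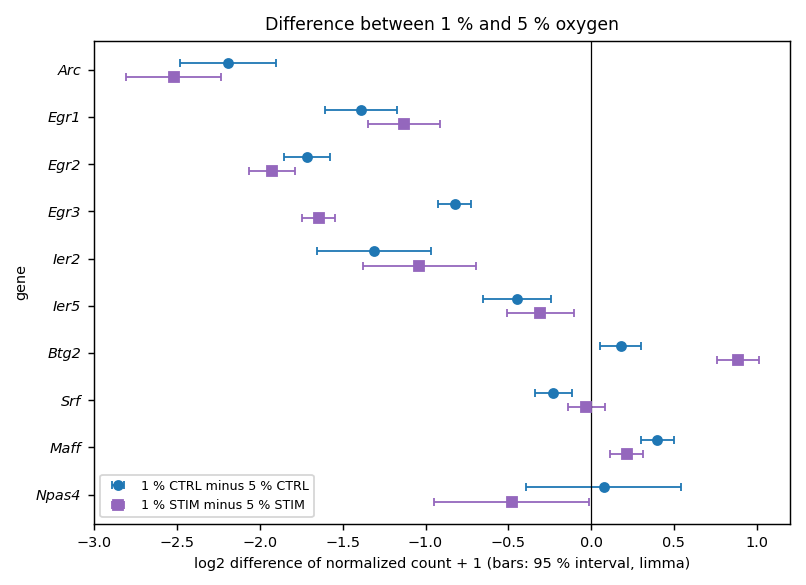
Log2 difference of normalized count + 1 between 1 % and 5 % O2 (horizontal axis) for the 10 early genes without stimulation (circles) and with it (squares), with 95 % intervals from limma. Arc had the most negative difference in both, -2.19 and -2.52, and Btg2 moved from 0.18 to 0.89.

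The other lists are given for the same contrasts. Of the 50 other immediate early genes 11 were called higher and 31 lower at 1 % O2 without stimulation, and 9 higher and 32 lower with it, beside the 59.9 % and 57.4 % of all genes called. After rescaling these were 11 higher and 30 lower, and 10 higher and 29 lower. Nr4a1 was higher at 1 % O2 by 1.29 and 1.21 in these comparisons, against -1.89 and -1.95 for Errfi1, a feedback inhibitor of the EGF receptor, and -1.11 and -1.07 for Ccn1, a secreted matrix protein. Of the 29 kinases and factors 6 were higher and 16 lower without stimulation, and 5 higher and 16 lower with it, beside the same shares of all genes. After rescaling they were 7 higher and 11 lower, and 6 higher and 10 lower. Of the 22 SRF cytoskeletal targets 7 were higher and 7 lower without stimulation, and 11 higher and 5 lower with it, beside 59.9 % and 57.4 % of all genes. After rescaling they were 13 higher and 6 lower, and 12 higher and 4 lower.

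The structure of the 10 genes played no part in their selection. Their median genomic span was 5287 bases and their median number of exon blocks 3.5, against 21165 bases and 9 over all tested genes. Their summed exon length was closer to the rest, with a median of 3166.5 against 4180.0 bases. Ier2 and Ier5 each have 1 exon block. No run of 75 bases in the transcripts of the 10 genes was shared with another gene, and none of their exons overlapped those of another gene.

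Correlations over the 24 libraries span both O2 levels and so rest in part on the values that selected the set. They are given as a description. The closest pair was Egr1 and Egr2 (*r* = 0.957), followed by Arc with Egr1 and with Egr3 (both 0.940), whereas Btg2 ran against Egr3 (-0.886). The genes that followed the other members most closely were Por and Urb2 for Egr1 (*r* = 0.977 and 0.976), Tmem131l and Ubtf for Egr2 (0.989 and 0.989), Klf5 and P2ry2 for Egr3 (0.987 and 0.986), and Gse1 and Dnajb12 for Ier2 (0.965 and 0.962). For Ier5 they were Gar1 and Tcap (0.935 and 0.932), for Srf Actb and Rrp8 (0.905 and 0.891), for Maff Zbtb7b (0.900) and for Npas4 Misp and Ccdc59 (0.757 and 0.745).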

How the data were processed

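RNA from 24 cultures in 4 groups of 6 was measured by single-end sequencing of stranded mRNA libraries. The authors checked reads with FastQC 0.11.7, aligned them to GRCm38 with STAR 2.5.4b and counted genes with RSEM 1.3.0 at default parameters, with no strand setting stated. The deposited signal is the count of each gene divided by a DESeq2 size factor, and values came back as whole reads within 0.01 in 100.0 % of cases, so that size factors between 0.955 and 1.051 were recovered. Within groups no library was a copy of another (lowest mean chi-square between replicates 2.57), and pairs across groups were not compared in this way. Of the gene identifiers 99.5 % matched the annotation. The authors' table of comparisons (fold changes and p-values) was not used.

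The filter on low values kept genes that reached 10 normalized counts in 6 or more of the 24 libraries. Log2(normalized count + 1) values were fitted with limma 3.58.1 (trend, robust) over 4 groups in R 4.3.3, with Benjamini-Hochberg adjustment at 0.05. The script was tested on simulated data. The alternatives run were a threshold of 0.01, a replicate block, no filter on low values, a pseudocount of 10, the compared groups alone, rescaling to the same total, edgeR 4.0.16, limma voom with TMM, DESeq2 1.42.0 on whole reads, and leaving out replicate 1 of 1 % CTRL. The list counts under rescaling, edgeR and without that library were added after seeing the data.

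Members and lists were chosen with earlier results of these data known. The genes named are the members, the 5 genes most correlated with Arc and the 2 most correlated with each other member, and from each list up to 4 genes called at 5 % O2 with the largest fold change and a mean of at least 100 normalized counts. A gene that this rule names is not reported here. Fos, Filip1l, Zyx, Tagln2, Acta1, Actc1, Elk1, Elk4, Btg3, Ier5l, Ccn1 and Errfi1 were chosen after their values were seen or as known representatives. Replicate numbers paired no samples by the labels, and the correlation of same-numbered libraries ranged from -0.148 to 0.155. Promoter sequences are those of RefSeq on GRCm38.p6, and gene positions those of GENCODE M21.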

Additional observations from a re-analysis of the deposited data

Results flagged for a closer look

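Among 40 groups of 6 libraries (10 genes in 4 groups), 5 held a library whose gap to its nearest neighbour was above Dixon's 95 % critical value of 0.625 of the group's range, where chance gives about 1 in 20 groups. Egr2 was high in replicate 4 of 5 % STIM, at 930.2 normalized counts. Srf was high in replicate 2 of 5 % STIM, at 2252. Ier2 and Ier5 were low in the same library, replicate 1 of 1 % CTRL, at 305 and 369. Ier5 was also low in replicate 3 of 1 % STIM, at 523.

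For 2 genes the response to stimulation differed between O2 levels by the interaction term of limma. Egr3 fell more at 1 % O2, with a difference of -0.82 (SE 0.07, adjusted p = 1.19e-10), and the highest of 6 stimulated libraries at 1 % O2 lay below the lowest of 6 controls. Btg2 rose more at 1 % O2, with a difference of 0.71 (SE 0.09, adjusted p = 4.35e-07), and all 6 stimulated libraries at 1 % O2 lay above all controls.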

How the results depend on the processing

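Of 490 values of the 10 genes under 10 alternative settings, 481 kept their direction and their side of the threshold and, where no test was given, moved by less than 1 SD between replicates. Part of this was fixed in advance. The log2 fold change does not depend on the threshold, the filter, the replicate block or which other groups are fitted. Values given without a test could not move under those settings. Leaving out replicate 1 of 1 % CTRL cannot move a log2 fold change between other groups. The stimulation change of Egr1 at 1 % O2 turned from -0.01 to 0.01 after rescaling (0.0108), by edgeR (0.0111) and by DESeq2 (0.0109). The O2 difference of Srf in stimulated myotubes turned to 0.0411 after rescaling, and those of Egr1 and Egr3 without stimulation became -1.31 and -0.74. Srf at 1 % O2 was no longer called at 0.01, and Maff passed the interaction test after rescaling and without replicate 1 of 1 % CTRL. At a threshold of 0.01, 1944 genes were called with stimulation at 5 % O2 (3115 at 0.05) and 830 in the interaction (1645 at 0.05). Without replicate 1 of 1 % CTRL the interaction called 2316 genes. The causes were not tested.

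The replicate block, with the number in the labels as a term, called 3190 genes with stimulation at 5 % O2, 3320 at 1 % O2 and 1710 in the interaction, and left the number of early genes called at 4, 5 and 2. Same-numbered libraries had a mean correlation of 0.00794 over 36 pairs, and 16 of 72 comparisons were best with their own number, so the block pairs libraries by number alone. On the recovered whole reads edgeR called 3097 genes with stimulation at 5 % O2, 3347 at 1 % O2 and 1660 in the interaction. Reads limit Npas4 most, with 9 to 32 in a library, whereas the other 9 genes had at least 23.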
